A study of Mus musculus with 22 samples.

Results

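Rn7sk, Rn7s1, Rn7s2, Rmrp, Rpph1, mt-Rnr1, mt-Rnr2, Malat1 and Neat1 are non-coding RNAs that can take a large part of the reads of a total RNA library. These 9 genes were chosen by name from the 56691 gene records of the files, and they were followed as shares of all counts. Rmrp is listed as 2 overlapping records, so the 9 genes make 10 records. Bulk RNA sequencing of CD11b+ cells from the brains of wild-type CF-1 mice gave 22 libraries from 20 animals. The libraries were prepared from total RNA with a stranded kit that removes ribosomal RNA.

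The HIE animals model neonatal hypoxic-ischemic encephalopathy by LPS (lipopolysaccharide) given to the dam late in gestation and a short hypoxia of the pup on P6. Controls were pups of saline-injected dams kept in normal air. The cells were enriched on CD11b beads, and the labels call them monocytes while the study calls them microglia. In the early cohort there were 4 HIE pups, labelled P7 and male, and 4 control pups. The study places both groups on P7, while the control labels read P8, P9, P10 and P11, with 2 pups labelled male and 2 female. The P14 cohort held 4 HIE, 4 control and 4 hypoxia animals, each group with 2 males and 2 females by label. Values are given in the order N5-3, N5-4, N8-3 and N8-4 for early HIE pups and P6H63-7, P6H63-8, P6H55-7 and P6H55-12 for early controls. At P14 the order is P4H1-1M, P4H1-6F, P6H12-14F and P6H12-11M for HIE, P4H4-8M, P6H8-8F, P4H4-7F and P6H8-7M for control, and P6H7-16M, P6H9-14M, P6H9-15F and P6H7-8F for hypoxia animals. The methods do not describe the hypoxia group, so whether its dams received anything is not known. The cohorts were deposited as separate tables, so that day and batch cannot be told apart in any comparison between them. Animals are called here by their labels. The prefixes of these names (N5, N8, P6H63 and so on) are not explained, and each full prefix belongs to 1 group, so that what it stands for cannot be told apart from the group. Of the shorter stems, P4H and P6H each hold 2 HIE and 2 control animals at P14, while all 4 hypoxia animals are P6H. No label says how the animals relate to litters.

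These RNAs have distinct jobs. Rn7sk is the 7SK RNA, the scaffold that holds the elongation factor P-TEFb inactive and so limits transcription by RNA polymerase II. Rn7s1 and Rn7s2 encode 7SL, the RNA core of the signal recognition particle, which brings ribosomes with nascent secreted proteins to the endoplasmic reticulum. Rmrp and Rpph1 are the RNA subunits of RNase MRP and RNase P, enzymes that cut precursor ribosomal RNA and precursor transfer RNA. RNA polymerase III makes all of these. mt-Rnr1 and mt-Rnr2 are the 12S and 16S ribosomal RNAs of mitochondria. Malat1 and Neat1 are long nuclear RNAs made by RNA polymerase II, found in nuclear speckles and paraspeckles.

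The sequences show what the counts can and cannot separate, and they are given 5′ to 3′ from the GRCm39 genome, the build the authors used, with positions from GENCODE M39. In Rmrp (chr4:43492783-43493063, − strand) the capitals mark the 5 bases at each end that belong to the longer record only. For Rn7sk (chr9:78082816-78082915, − strand), the first 100 bases are shown, with each GATC in capitals, since GATC elements in the first hairpin of 7SK are known to bind the P-TEFb inhibitor HEXIM1.
Rmrp: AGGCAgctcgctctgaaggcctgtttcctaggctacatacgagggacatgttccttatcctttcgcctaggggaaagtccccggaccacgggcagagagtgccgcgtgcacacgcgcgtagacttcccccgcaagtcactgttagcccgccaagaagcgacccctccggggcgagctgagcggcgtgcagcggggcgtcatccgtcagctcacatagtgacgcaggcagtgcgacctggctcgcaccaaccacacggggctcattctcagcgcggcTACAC
Rn7sk: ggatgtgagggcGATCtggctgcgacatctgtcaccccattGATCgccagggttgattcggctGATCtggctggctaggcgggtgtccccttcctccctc

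Rn7s1 and Rn7s2 were identical at 300 of 300 positions, so a read that lies within 7SL cannot say whether Rn7s1 or Rn7s2 made it. The counting nevertheless gave Rn7s2 more than Rn7s1 in each of the 20 animals, from 1.99 to 3.43 times as much, so only their sum is read here as a level of 7SL. The Rmrp records share all 271 bases of the ribozyme record, and the lncRNA record has 281. Rn7sk spans chr9:78082585-78082915 on the − strand with 331 bases, of which GATC occurs 3 times, at positions 13, 42 and 64 from the 5′ end. Rpph1 lies on chr14:51044906-51045224, − strand. No other gene in the files matched Rn7sk, 7SL, Rmrp, the mitochondrial RNAs, Malat1 or Neat1 at 95% identity over 80% of their length. Annotated genes outside the files were not considered. Rpph1 lies within the span of Ccnb1ip1 on the same strand, and it overlaps Parp2 on the opposite strand, while Ccdc107 overlaps Rmrp on the opposite strand. Whether the counting used the strand is not given in the sources used here. Parp2 and Ccdc107 took at most 0.00261% and 0.00108% of counts in any animal, and Parp2 reached 47.0% of the count of Rpph1 in an early animal. mt-Rnr1 (chrM:70-1024) and mt-Rnr2 (chrM:1094-2675) lie on the + strand of the mitochondrial genome, and Malat1 (chr19:5845717-5853602) and Neat1 (chr19:5874736-5897132) on the − strand of chromosome 19.

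Total counts ran from 73617532 to 79571088 in early HIE pups, from 70191584 to 83469067 in early controls and from 29751540 to 76166821 in P14 animals. Of 16 microglia markers 15 were in the files, and they summed to 13267 to 15104 CPM (counts scaled to the same library total) in early HIE pups and to 14222 to 21773 CPM at P14. The early controls fell apart by prefix, with 12390 and 11340 CPM in P6H55-7 and P6H55-12 but 2227 and 1375 CPM in P6H63-7 and P6H63-8. The P6H63 pups also had more of the astrocyte markers, at 5221 and 6170 CPM, against 1446 and 2105 CPM in the P6H55 pups, and P6H63-8 had the most choroid plexus markers of all animals, at 12002 CPM. In bulk RNA, fewer cells of a type and less RNA per cell cannot be told apart. Shares in early controls are therefore given by pup, and calls of the members against HIE pups and P14 controls also by prefix. Group means and the other results take the early controls together unless stated.

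The 9 RNAs together took 1.82 to 6.14% of all counts in the 8 early pups and 11.7 to 15.1% in the 12 P14 animals. The early HIE pups were close together at 3.01, 3.09, 2.75 and 3.04%. The early controls held 1.82% in P6H63-7, 2.002% in P6H63-8, 3.68% in P6H55-7 and 6.14% in P6H55-12. At P14 the shares were 14.8, 11.7, 12.96 and 12.4% in HIE animals, 13.9, 12.8, 15.1 and 11.9% in controls, and 12.1, 12.6, 12.1 and 12.4% in hypoxia animals. No early pup reached the lowest P14 animal, and the 3 P14 groups overlapped. Group means were 2.97% ± 0.154, 3.41% ± 2.002, 12.96% ± 1.36, 13.4% ± 1.37 and 12.3% ± 0.256 (SD, n = 4 each) in the order early HIE, early control, P14 HIE, P14 control and P14 hypoxia. Rn7sk, Rn7s1 and Rn7s2 made 97.5 to 99.9% of the counts of all RNAs that the annotation calls misc_RNA, in which 559 other records are listed.

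**Figure D1:**
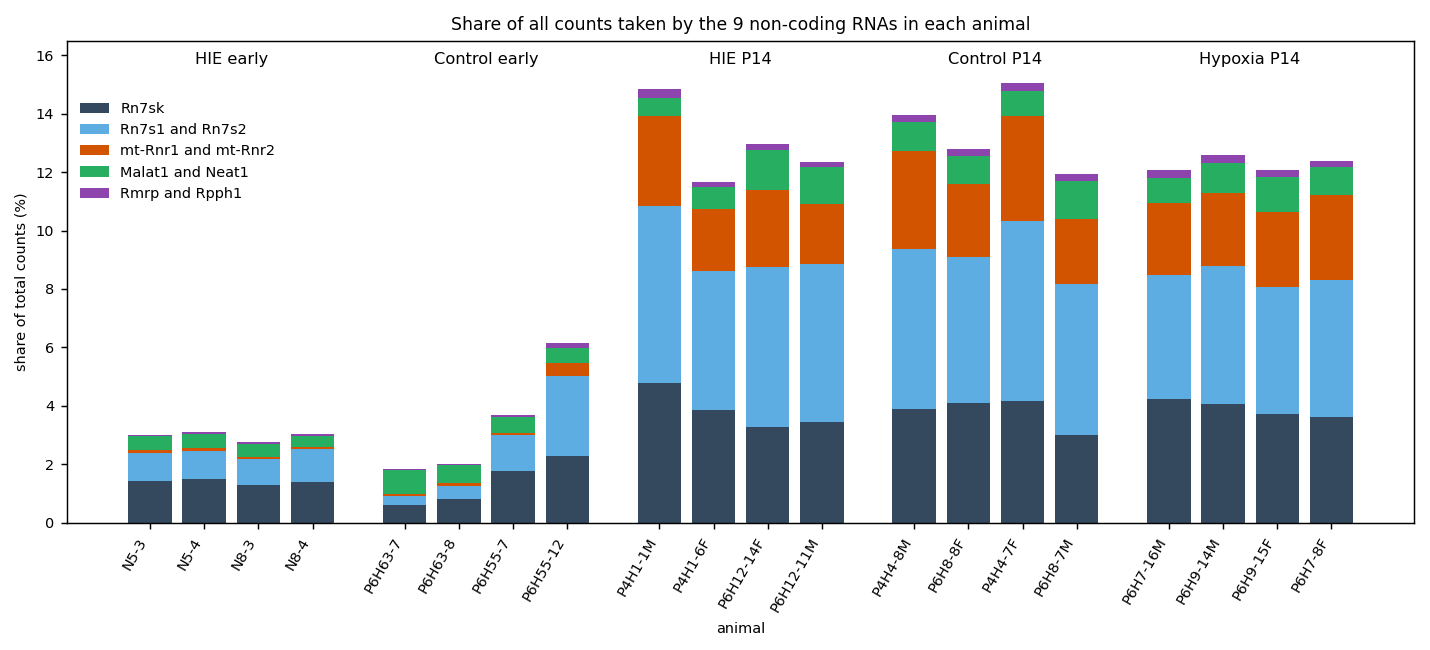
Bars give the percent of all counts of an animal taken by the 9 RNAs, stacked by gene group, for each of the 20 animals (2 libraries summed for P4H1-6F and P6H12-11M). Every early bar lies below every P14 bar, the orange mitochondrial part is thin in the early pups, and the early controls run from 1.82 to 6.14% while the early HIE pups lie between 2.75 and 3.09%.

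Rn7sk took 1.41, 1.49, 1.28 and 1.40% of counts in early HIE pups, and 0.585, 0.796, 1.78 and 2.28% in the early controls. At P14 it held 4.77, 3.86, 3.28 and 3.43% in HIE animals, 3.87, 4.09, 4.18 and 2.99% in controls, and 4.22, 4.05, 3.72 and 3.63% in hypoxia animals. The HIE pups sat in the gap between the P6H63 and the P6H55 controls, and the P14 animals of all groups overlapped above every early pup. By total count Rn7sk held ranks 1 to 3 of all genes in the early pups and 1 or 2 at P14.

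7SL, as Rn7s1 and Rn7s2 summed, took 0.962, 0.959, 0.884 and 1.11% of counts in early HIE pups and 0.335, 0.466, 1.22 and 2.76% in the early controls. It held 6.06, 4.77, 5.46 and 5.42% in P14 HIE animals, 5.48, 5.01, 6.15 and 5.17% in controls, and 4.26, 4.73, 4.35 and 4.69% in hypoxia animals. With libraries summed by animal, the hypoxia animals were all below the lowest control and the lowest HIE animal, by a narrow margin. A single library of each of the HIE animals P4H1-6F and P6H12-11M, at 4.65 and 4.67%, was below the highest hypoxia animal. The balance of 7SK against 7SL also differed between the cohorts. The ratio of Rn7sk to 7SL was 1.27 to 1.74 in 7 early pups and 0.579 to 0.989 in the P14 animals, and P6H55-12, at 0.826, lay within the P14 range.

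RNase MRP and RNase P RNAs were less abundant by far. Rmrp, with both records summed, took 0.0458, 0.0451, 0.0381 and 0.0541% in early HIE pups and 0.0120, 0.0173, 0.0637 and 0.0966% in early controls. At P14 it held 0.201, 0.0974, 0.125 and 0.107% in HIE animals, 0.118, 0.141, 0.183 and 0.136% in controls, and 0.138, 0.149, 0.120 and 0.123% in hypoxia animals. P6H55-12 was just below the lowest P14 animal, P4H1-6F, and the P6H63 pups were the lowest of all. The share of Rmrp counts that fell to the longer lncRNA record was 3.25 to 4.999% in 7 early pups, 19.3% in P6H55-12 and 18.1 to 24.1% at P14.

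Rpph1 took 0.0139, 0.0167, 0.0175 and 0.0150% of counts in early HIE pups and 0.00563, 0.00502, 0.0147 and 0.0588% in early controls. It held 0.123, 0.0952, 0.0922 and 0.0918% in P14 HIE animals, 0.0971, 0.112, 0.120 and 0.0849% in controls, and 0.114, 0.110, 0.0922 and 0.102% in hypoxia animals. Here P6H55-7 was among the HIE pups, and only P6H55-12 stood well above them. Rmrp exceeded Rpph1 by 1.64 to 4.35 times in the early pups and by 1.02 to 1.63 times at P14.

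The mitochondrial ribosomal RNAs showed the widest gap. mt-Rnr2 took 0.0525, 0.0457, 0.0375 and 0.0311% of counts in early HIE pups and 0.0259, 0.0432, 0.0423 and 0.122% in early controls. At P14 it took 2.90, 1.97, 2.48 and 1.92% in HIE animals, 3.17, 2.35, 3.34 and 2.11% in controls, and 2.27, 2.35, 2.37 and 2.71% in hypoxia animals. The median over P14 animals was 55.1 times the median over early pups, and mt-Rnr2 was at rank 3 of all genes in each P14 animal but between ranks 59 and 547 in the early pups.

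mt-Rnr1 moved less. It took 0.0482, 0.0434, 0.0351 and 0.0300% in early HIE pups, and 0.0297, 0.0428, 0.0416 and 0.298% in early controls. At P14 it held 0.207, 0.134, 0.172 and 0.130% in HIE animals, 0.209, 0.165, 0.241 and 0.151% in controls, and 0.186, 0.171, 0.193 and 0.194% in hypoxia animals. The early pup P6H55-12 exceeded every P14 animal, and all others were below them. Transcribed from the same strand as neighbours, the RNAs were nearly equal in the HIE pups, with mt-Rnr2 at 1.04 to 1.09 times mt-Rnr1. In the early controls the ratio was 0.870, 1.01, 1.02 and, in P6H55-12, 0.411, and at P14 it was 12.2 to 15.1.

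The 13 messenger RNAs of the mitochondrial genome did not share that gap. Summed, they held 1.43 to 1.71% of counts in early HIE pups, 1.62 to 2.20% in early controls and 1.16 to 1.86% at P14. Kits of this kind remove mitochondrial as well as cytoplasmic ribosomal RNA, and the part of that removal in the gap was not tested. Records that the annotation calls rRNA moved the other way, with 0.176 to 0.552% of counts in early pups and 0.0299 to 0.131% at P14. Almost all of these counts fell to a single locus, Rn18s-rs5. Its means were 2947 CPM in early and 638 CPM in P14 HIE animals, where the class means were 0.2947 and 0.0639%.

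**Figure D2:**
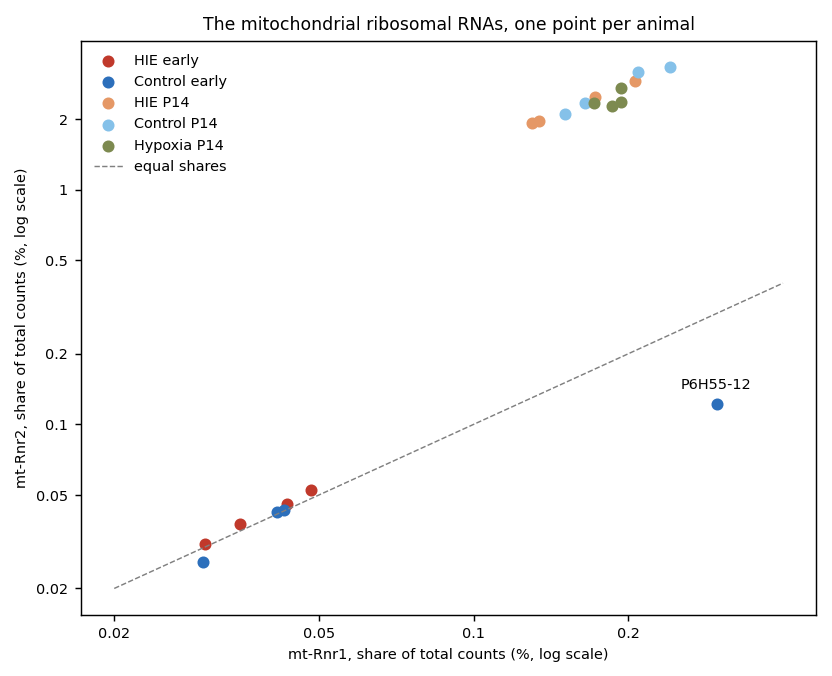
Each point is 1 animal, with the share of counts of mt-Rnr1 on the horizontal and of mt-Rnr2 on the vertical axis, both on log scales, and the dashed line marks equal shares. Early pups lie along the line except P6H55-12, which lies below it at 0.298 and 0.122%, and all 12 P14 animals lie 12.2 to 15.1 times above it.

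Malat1 took 0.449, 0.456, 0.417 and 0.362% of counts in early HIE pups and 0.787, 0.615, 0.475 and 0.488% in early controls. At P14 it held 0.577, 0.719, 1.32 and 1.23% in HIE animals, 0.980, 0.912, 0.838 and 1.25% in controls, and 0.845, 0.991, 1.17 and 0.919% in hypoxia animals. Every early HIE pup was below every early control, with the P6H63 pups the highest of the early cohort. Among P14 HIE animals both P4H1 animals, with a mean of 0.648%, were below both P6H12 animals, with a mean of 1.28%.

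Neat1 took 0.0297, 0.0346, 0.0403 and 0.0332% in early HIE pups and 0.0398, 0.0172, 0.0487 and 0.0429% in early controls. It held 0.0105, 0.0226, 0.0304 and 0.0304% in P14 HIE animals, 0.0188, 0.0262, 0.0176 and 0.0456% in controls, and 0.0239, 0.0239, 0.0396 and 0.0243% in hypoxia animals. It was the sole member whose early median, 0.0372%, was above its P14 median, 0.0241%, and its ranges overlapped in all comparisons. Malat1 was 9.77 to 35.8 times Neat1 in the early pups and 27.4 to 54.96 times at P14.

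**Figure D3:**
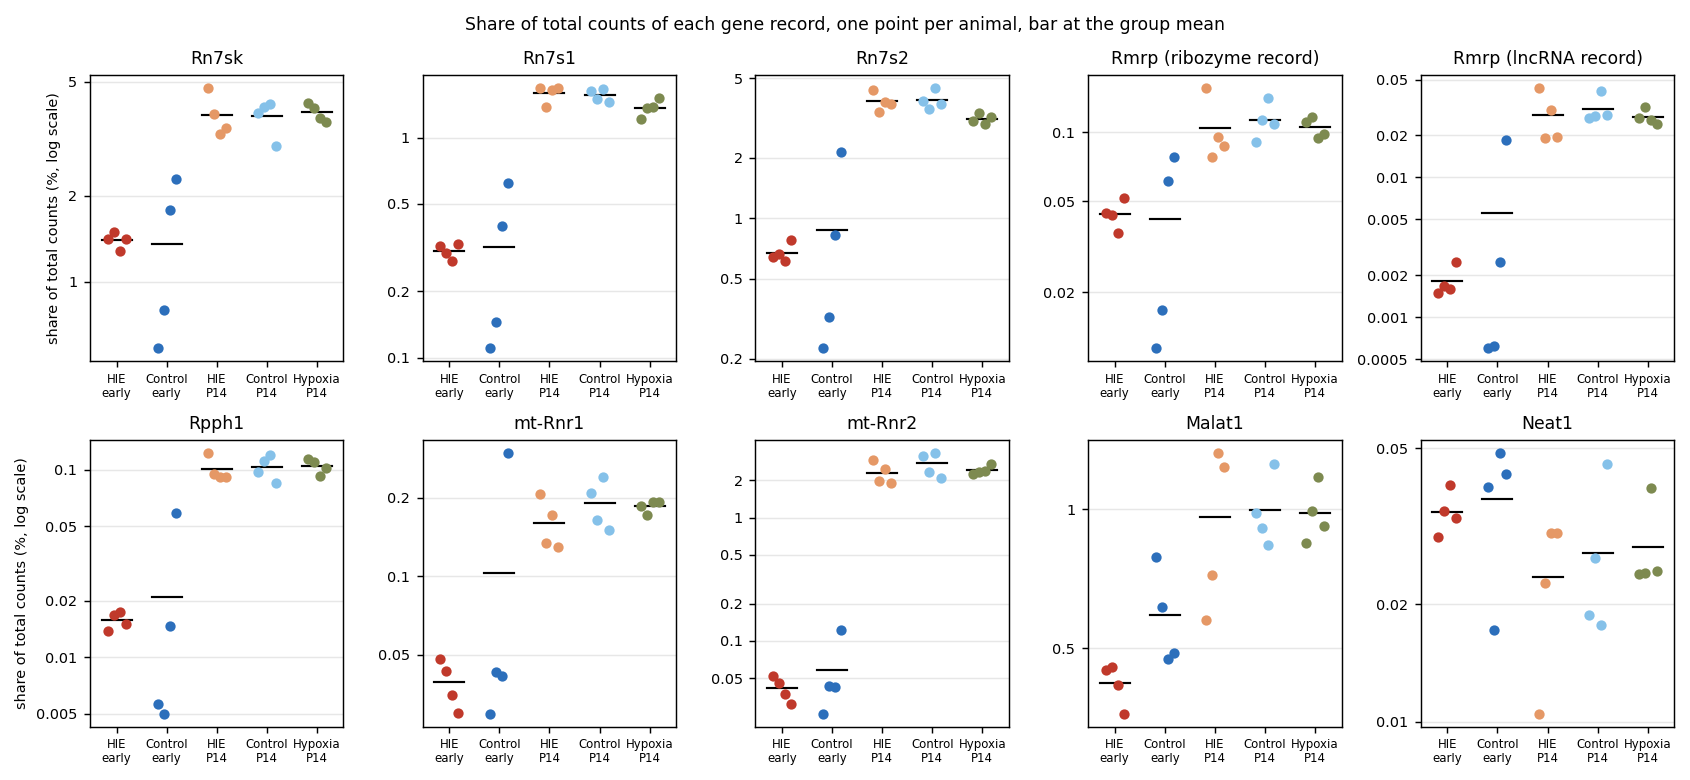
Percent of all counts on a log axis for each of the 10 records, with 1 point per animal, 4 animals per group, and a bar at the group mean. Group means are higher at P14 than in the early cohort for every record but Neat1, and the early controls of the small RNAs spread from below to above the HIE pups.

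Per kilobase of annotated exon, Rn7sk, Rn7s1 and Rn7s2 ranked above the other records in every group. Group means of CPM per kilobase were 41021 to 42193 for Rn7sk in the early groups and 114285 to 117972 at P14. For Rn7s2 they were 22405 to 29191 and 104827 to 129590, and for Rn7s1 10191 to 10610 and 45464 to 53260. mt-Rnr2 came next at P14, at 14644 to 17326, but was at 264 to 369 in the early groups, and mt-Rnr1 was at 410 to 1079 and 1684 to 2006. For Malat1 they were 534 to 750 and 1222 to 1262, and for Neat1 15.4 to 16.6 and 10.5 to 12.5. Rmrp (ribozyme record) was at 1543 to 1622 and 3854 to 4194, and Rpph1 at 495 to 659 and 3154 to 3277. The early control mean of mt-Rnr1, 1079, had an SD of 1362.

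The first comparison asked whether these RNAs differed between HIE and control pups soon after hypoxia. None of the 10 records was called at an adjusted p under 0.05 by edgeR's quasi-likelihood test with Benjamini-Hochberg adjustment over 22517 genes, where 15 genes (0.0666%) were called, 0.0222% as higher and 0.0444% as lower in HIE pups. None had an unadjusted p under 0.05 either, and DESeq2 called none of them among its 3024 genes. The log2 fold changes, HIE over control, ran from -1.56 ± 1.09 (SE) for the Rmrp lncRNA record to 0.17 ± 0.63 for the Rmrp ribozyme record, and their median was -0.28, beside -0.08 over all genes tested. Rmrp with both overlapping records summed was at 0.04 ± 0.66. Rn7sk was at 0.16 ± 0.51, 7SL as 1 record at -0.19 ± 0.68, Rpph1 at -0.33 ± 0.78 and Neat1 at 0.05 ± 0.34.

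mt-Rnr1 was at -1.29 ± 0.78 and mt-Rnr2 at -0.36 ± 0.50. For Malat1, whose shares did not overlap between the groups, the value was -0.27 ± 0.20 with an adjusted p of 0.369 by edgeR. The number of all genes without overlap is not given here, and 6143 of 22517 had an unadjusted p under 0.05 by edgeR. With scaling by library size alone the median over all genes moved from -0.08 to -0.28 and Malat1 to -0.49, with an adjusted p of 0.143 by edgeR.

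The control pups lay on both sides of the HIE pups. Against the mean of the HIE pups, Rn7sk was at 0.419 and 0.570 times in the P6H63 pups and at 1.27 and 1.63 times in the P6H55 pups. For Rmrp with both records the values were 0.263, 0.379, 1.39 and 2.11 times. All 6 records of small RNAs were below the HIE mean in both P6H63 pups, and Malat1 was above it there, at 1.87 and 1.46 times. With the P6H63 pups as the controls, edgeR called 7 of the 10 records, along with 13905 of 23780 genes, with the 6 small RNA records higher and Malat1 lower in HIE pups. With the P6H55 pups as controls, or with males only, it called none.

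The P6H63 pups are those with microglia markers at 2227 and 1375 CPM, and the part of that difference in these calls was not tested. Rpph1 reached 1.95 there, the Rmrp lncRNA record 1.94 and Rn7s2 1.67, each opposite in sign to its value with all 4 controls. P6H55-12, the control labelled P11, held 10.3 times the HIE mean of the Rmrp lncRNA record, 7.61 times that of mt-Rnr1 and 3.72 times that of Rpph1. In P6H55-7, of the same prefix, these were 1.37, 1.06 and 0.929 times. The library of P6H55-12 carries another RNA number in its title than all other early libraries. What that number stands for is not explained, and its part in these values was not tested. The microglia markers of P6H55-12 were at 11340 CPM, near those of P6H55-7, and its mitochondrial messenger RNAs at 2.20% of counts were the highest of the early cohort.

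**Figure D4:**
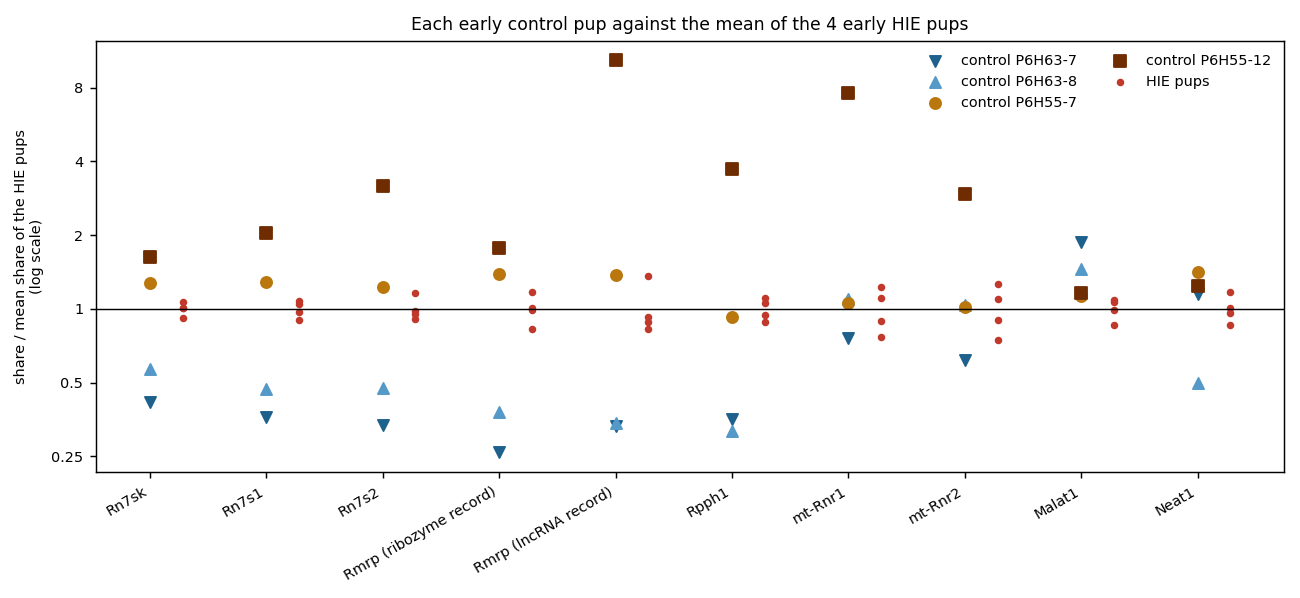
Share of counts of each record in each early control pup, divided by the mean share of the 4 early HIE pups, on a log axis, with the single HIE pups as small red points. The P6H63 pups (triangles) lie below 1 for the 6 small RNA records and above 1 for Malat1, and P6H55-12 (square) lies highest for 8 of the 10 records.

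At P14 the question was whether HIE and control animals differed by the second week. None of the 10 records was called, with edgeR calling 1 of 20934 genes (0.00478%), and no member had an unadjusted p under 0.05. The estimates were tighter than in the early cohort, with standard errors of 0.17 to 0.34, and ran from -0.22 ± 0.22 for mt-Rnr1 to 0.07 ± 0.17 for Rn7s1. Their median was -0.05, beside 0.01 over all genes tested. Rn7sk was at 0.06 ± 0.24, Malat1 at -0.02 ± 0.25 and Neat1 at -0.16 ± 0.34. DESeq2 called 490 genes and none of the members. With the P4H or P6H stem as a block, edgeR called 2 of 21537 genes and no member.

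Hypoxia and control animals likewise gave no call among the members, where edgeR called 2 of 20953 genes (0.00955%), and none had an unadjusted p under 0.05. Rn7s2 had the most negative value, at -0.31 ± 0.22, and 7SL as 1 record was at -0.28 ± 0.23 with an adjusted p of 0.722 by edgeR. Its shares did not overlap, with means of 4.51% ± 0.235 in hypoxia animals and 5.45% ± 0.506 in controls (SD, n = 4). Of the single records only Rn7s2 did not overlap there. How many of all genes did not overlap is not given here, and 1996 of 20953 had an unadjusted p under 0.05 by edgeR. Rn7sk stayed at 0.04 ± 0.23, and Rpph1 at 0.01 ± 0.15. Between HIE and hypoxia animals, which share their samples with the comparisons above, edgeR called 2 of 20949 genes (0.00955%) and no member. 7SL was at 0.29 ± 0.28, HIE over hypoxia, and Neat1 at -0.24 ± 0.28. With P6H animals only, which leaves 2 HIE or 2 control animals, edgeR called no gene between hypoxia and control animals (1201 with an unadjusted p under 0.05), 3 genes between HIE and hypoxia animals, and no member in either.

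The difference of the HIE effect between the cohorts was tested as an interaction. No member was called, where edgeR called 1 of 24693 genes (0.00405%), and no member had an unadjusted p under 0.05. With all animals the values, early minus P14, ran from -1.45 ± 1.15 for the Rmrp lncRNA record to 0.25 ± 0.70 for its ribozyme record. These records overlap, and their sum was not tested in the interaction.

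Between the cohorts the members differed far more. In HIE animals edgeR called 9 of the 10 records, all lower in the early pups, where it called 46.0% of 22579 genes, 22.8% as lower and 23.2% as higher. mt-Rnr2 was lowest at -5.83 ± 0.28 (adjusted p = 4e-07 by edgeR), or 56.7-fold. The Rmrp lncRNA record followed at -3.99 ± 0.31, but Rmrp with both overlapping records summed was at -1.57 ± 0.23. Rpph1 was at -2.70 ± 0.15 and 7SL as 1 record at -2.50 ± 0.22. mt-Rnr1 was at -2.07 ± 0.20, Rn7sk at -1.49 ± 0.22, the Rmrp ribozyme record at -1.28 ± 0.22 and Malat1 at -1.20 ± 0.24. Neat1, at 0.54 ± 0.25 with an adjusted p of 0.105 by edgeR, was not called. The median over the 10 records was -2.24, beside -0.02 over all genes tested. Day, batch and whatever else separated the tables cannot be told apart here. Oligodendrocyte markers summed to 258 to 573 CPM in early pups and 755 to 5062 CPM at P14, and erythroid markers to 16.8 to 44.7 and 51.2 to 1584 CPM, and their part in the result was not tested.

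In control animals 3 of the 10 records were called, all lower in the early pups, where edgeR called 33.0% of 22320 genes, 15.6% as lower and 17.4% as higher. These were mt-Rnr2 at -5.70 ± 0.73 (adjusted p = 0.00132 by edgeR), Rn7s1 at -2.42 ± 0.65 (adjusted p = 0.0238) and Malat1 at -0.98 ± 0.30 (adjusted p = 0.0373). The call of Rn7s1 was lost when 7SL was taken as 1 record, at -2.31 ± 0.82 with an adjusted p of 0.060 by edgeR. That of Malat1 was lost on leaving out any of the 8 animals, and by library size alone, with an adjusted p of 0.0627 by edgeR. Rn7sk, at -1.62 ± 0.63, had an adjusted p of 0.078, and Rpph1, at -2.41 ± 0.82, one of 0.052 by edgeR.

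Direction held more widely than the calls. The control shares of Rn7sk, 7SL, both Rmrp records, Rpph1, mt-Rnr2 and Malat1 did not overlap between early and P14 animals. How many of all genes did not overlap either is not given here. By edgeR, 10288 of 22320 genes had an unadjusted p under 0.05, so such gaps are not particular to the members. Without P6H55-12 edgeR called 7 of the 10 records and 7590 of 21921 genes. With the P6H63 pups as the early controls it called 9 records, in a fit that called 13390 of 22690 genes, and with the P6H55 pups 7 records and 6920 of 22151 genes. mt-Rnr1 was at -1.02 ± 0.78 with P6H55-12 and at -2.55 without it. The median over the records was -1.94, beside 0.02 over all genes tested, and by library size alone the latter rose to 0.23.

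**Figure D5:**
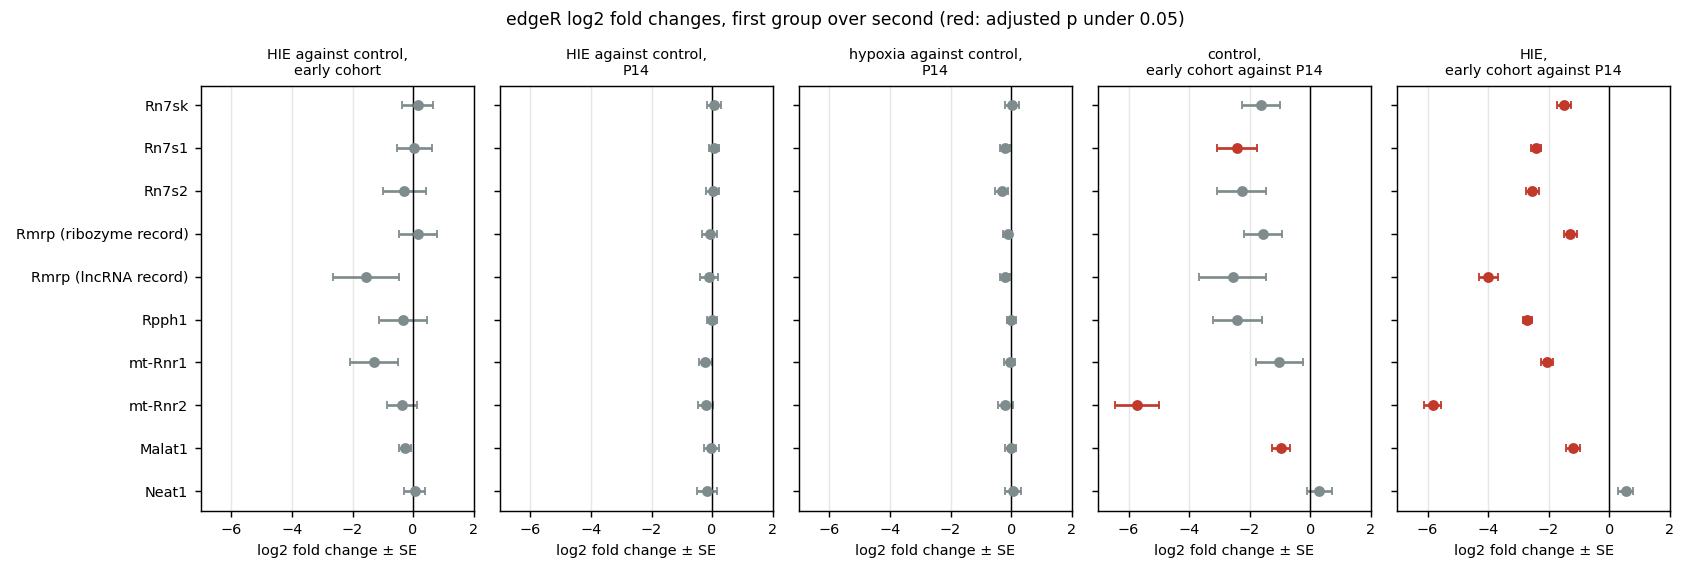
Log2 fold change with its SE for the 10 records in 5 comparisons, first group over second, in red where edgeR's adjusted p was under 0.05. The panels within a cohort hold no red point, and the panels between cohorts hold 3 and 9 red points, all to the left of 0.

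The protein partners of these RNAs were called in both directions between the cohorts, and their counts stand beside 23.2% of all genes higher and 22.8% lower in early HIE pups. Of 10 proteins of the 7SK particle and P-TEFb, 4 were higher in early HIE pups than in P14 HIE animals and none lower, with Cdk9, the kinase of P-TEFb, at 0.75 ± 0.10. Of 10 genes of the signal recognition particle and its receptor, 3 were higher and 2 lower, among them Srp54b at 2.63 ± 0.24 and Srp54a at -0.46 ± 0.08, near-identical copies whose reads the counting may split. Of 11 proteins of RNase P and RNase MRP, 2 were higher and 1, Pop5, lower at -0.64 ± 0.12. Of 20 subunits and factors of RNA polymerase III, 4 were higher and 5 lower, near the shares over all genes. Of 12 genes for the assembly of the mitochondrial ribosome, none was called. The list medians ran from -0.04 to 0.20 in these lists.

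Among 10 paraspeckle proteins 5 were higher and 1 lower, with Dazap1 at 0.86 ± 0.11. Among 10 nuclear speckle proteins 4 were higher, such as Srsf2 at 0.84 ± 0.10, and 2 lower, such as Pnisr at -0.90 ± 0.18. Of the 13 mitochondrial messenger RNAs, 4 were higher, with mt-Nd5 at 1.75 ± 0.11 and mt-Nd4 at 1.35 ± 0.12, and 2 were lower, mt-Atp8 at -1.80 ± 0.28 and mt-Nd3 at -1.29 ± 0.37. The mitochondrial counts too were near the shares over all genes. In the controls the same lists gave from 0 to 4 calls in either direction, beside 17.4% of all genes higher and 15.6% lower. In each of the treatment comparisons and the interaction, edgeR called no gene of any of the 12 lists.

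Of 7 other small structured RNAs that could be tested in HIE animals, 5 were lower in the early pups and none higher, beside 22.8% of all genes lower. Rprl3, an RNase P RNA-like gene, had a mean of 5.54 CPM ± 0.695 in the early and 63.2 CPM ± 11.0 in the P14 HIE animals (SD, n = 4), a log2 fold change of -3.55 ± 0.18. Rnu2-10, a U2 spliceosomal RNA gene, had 0.983 CPM ± 0.0952 and 15.1 CPM ± 4.46. In control animals 4 of 6 were lower, beside 15.6% of all genes. Only 3 RNAs of this list passed the filter on low counts within the early cohort. The rest entered through their P14 counts and could hardly come out higher in early pups. Rnu12, for example, had 0.0226 CPM in early and 1.17 CPM in P14 HIE animals. The shares over all genes are therefore no measure for these counts. By class, small nucleolar RNA genes held 0.00476 to 0.0392% of counts in early pups and 0.0695 to 0.118% at P14. Of 15 long nuclear RNAs other than Malat1 and Neat1, 6 were lower and 1 higher in early HIE pups, beside 22.8 and 23.2% of all genes. Their median was -0.42, beside -0.02 over all genes tested. In early controls 5 were lower and 1 higher, beside 15.6 and 17.4% of all genes, with a median of -0.58 beside 0.02. Rn18s-rs5, the locus with 18S ribosomal RNA sequence that held almost all rRNA counts above, was higher at 2.17 ± 0.43.

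Over 20 animals, after subtracting group means from log2 CPM, Pearson's r was 0.95 between Rn7sk and the Rmrp ribozyme record, 0.92 between Rn7sk and Rn7s2 and 0.95 between Rn7s2 and Rpph1. It was 0.96 between mt-Rnr1 and mt-Rnr2 and 0.53 between Malat1 and Neat1. Malat1 went against the small RNAs, at -0.65 with Rn7sk. These values are descriptions in which library and total count are shared. Over the 12 P14 animals alone some pairs of small RNAs were less alike. Those of Rn7s1 had r of 0.05 with Rn7sk, 0.14 with Rpph1 and 0.27 with the Rmrp ribozyme record. The counts of Rn7s1 cannot be separated from those of Rn7s2, however. In the same 12 animals r was 0.91 between Rn7sk and Rpph1. It was 0.84 between Rn7s2 and the Rmrp lncRNA record and 0.79 between the Rmrp ribozyme record and Rpph1. There r was 0.62 between Rn7sk and the Rmrp ribozyme record, 0.44 between Rn7sk and Rn7s2, 0.96 between mt-Rnr1 and mt-Rnr2, 0.85 between Malat1 and Neat1 and -0.86 between Malat1 and Rn7sk.

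Among 10558 genes with a mean of at least 10 CPM, the one most like Rn7sk was Scarna10, a small Cajal body RNA, with r = 0.95. It was also the most like Rn7s1 (0.96) and Rn7s2 (0.96). Gm25395, a scaRNA gene, was most like the Rmrp ribozyme record (0.95), Snora73a, a snoRNA, the Rmrp lncRNA record (0.95) and Gm23262, a snoRNA gene, Rpph1 (0.98). mt-Atp8 and mt-Nd2 were the nearest to mt-Rnr1 (0.95 and 0.92) and to mt-Rnr2 (0.90 for both). Without P6H55-12 these fell to 0.86 and 0.81 for mt-Rnr1 and to 0.78 and 0.79 for mt-Rnr2. The other genes named in this paragraph stayed at 0.91 to 0.96 without that pup. The P6H63 pups, with low microglia markers, were kept in all these values, and r over the P14 animals alone is not given for these genes. Snapc3, a subunit of the complex that activates genes such as Rn7sk, and Gm10033 were the nearest to Malat1 (0.94 for both), and E030022I16Rik was the nearest to Neat1 (0.95).

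A pair of libraries was made from each of 2 P14 HIE animals. For P4H1-6F the libraries held 3.72 and 4.00% Rn7sk, 4.65 and 4.90% 7SL, 1.72 and 2.24% mt-Rnr2, and 0.704 and 0.735% Malat1. For P6H12-11M they held 3.03 and 3.84% Rn7sk, 4.67 and 6.16% 7SL, 1.99 and 1.84% mt-Rnr2, and 1.25 and 1.22% Malat1. Libraries of 1 animal thus differed by up to 1.32 times in 7SL, while the 4 animals of that group differed by 1.27 times. The Rmrp lncRNA record differed by 1.88 times between the libraries of P6H12-11M.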

How the data were processed

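Expected counts per gene from 22 libraries of CD11b+ cells were used as deposited. The authors mapped reads to GRCm39 with STAR and estimated counts with RSEM, per the labels and the methods, and did not scale them for library size. The annotation release, trimming and strand setting are not given in the sources used here. The 9 RNAs and all gene lists were chosen with earlier results of these data known. Libraries of the same animal were summed, giving 20 animals, and a share is the count of a record over the total of its animal. Gene names, types and coordinates came from GENCODE release M39, which matched 56017 of 56691 genes. Between 84.2 and 88.0% of values were whole, and the others were rounded before tests.

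Each comparison was fitted on its own groups with edgeR 4.0.16 in R 4.3.3 (quasi-likelihood test, TMM factors, filterByExpr), the interaction on 4 groups, with Benjamini-Hochberg adjustment over all genes tested and a threshold of 0.05. Limma 3.58.1 was loaded with edgeR. Fits were tested on simulated counts. Alternatives were DESeq2 1.42.0, other scalings, no filter on low counts, subsets of animals and leaving out each animal. The sums of Rn7s1 with Rn7s2 and of the Rmrp records were added after the data were seen. All 9 RNAs are named in every comparison. From each list, up to 2 genes in each direction with the smallest adjusted p under 0.05 could be named, and for each record the 2 genes with the highest correlation. Nothing says that each animal came from a separate litter, so p-values measure the spread between these animals. Library totals ran from 29751540 to 83469067, and a count of 3 was taken as the floor. One sequence and 1 gene of the lists are not reported here.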

Additional observations from a re-analysis of the deposited data

Results flagged for a closer look

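Among 55 groups of 4 animals tested on log2 shares, 5 had 1 animal set apart from the other 3 by a gap above the 95% critical value of Dixon for the range of the group, where chance gives about 5% of groups. P6H55-12 was the highest early control for mt-Rnr1, at 0.298% of counts. At P14, P4H1-6F was the lowest HIE animal for Rn7s1, at 1.38%, and P4H1-1M the highest for Rpph1, at 0.123%. P4H4-7F was the highest control for the Rmrp lncRNA record, at 0.0417%, and P6H9-15F the highest hypoxia animal for Neat1, at 0.0396%.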

How the results depend on the processing

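With the P6H63 pups as the early controls, 7 records and 13905 of 23780 genes were called between HIE and control pups, instead of 0 and 15. Rn7s2 (1.67), the Rmrp lncRNA record (1.94) and Rpph1 (1.95) changed sign. Between early and P14 controls edgeR called 3 records and 7363 of 22320 genes. By library size only it called 5 records and 8064 genes, and with no filter on low counts 5 records and 7201 of 37005 genes. DESeq2 called 6 records and 9562 genes. With P6H55 pups edgeR called 7 records and 6920 of 22151 genes, and with P6H63 pups 9 records and 13390 of 22690 genes. Leaving out 1 animal gave 2 to 7 records and 4855 to 8620 genes. Without P6H55-12 edgeR called 7 records and 7590 of 21921 genes. The cause was not tested. Library size only moved the split of all calls there from 3873 higher and 3490 lower to 5452 and 2612. Between HIE cohorts 9 to 10 records were called on leaving out 1 animal, along with 8992 to 11570 genes. As a percent of protein-coding counts the 9 RNAs summed to 3.15 in early HIE, 3.69 ± 2.27 (SD) in early control, 15.4 in P14 HIE, 16.1 in P14 control and 14.5 in P14 hypoxia animals. As a percent of counts outside the 9, they summed to 3.06, 3.56, 14.9, 15.5 and 13.99 in the same order. Over 938 recomputed fold changes of the records, 99 changed sign, 96 of them with neither value called. DESeq2 called 3024, 490 and 164 genes in HIE against control early, the same at P14 and hypoxia against control, where edgeR called 15, 1 and 2. Without P6H55-7 edgeR called 5588 genes between early HIE and control pups. No paired analysis was possible because replicate numbers were given in accession order and pair no animals. A block for the P4H or P6H stem, in HIE against control at P14, called 2 genes against 1 and no member, and turned only the sign of Rpph1, from 0.00 to -0.01.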
